A study of Drosophila melanogaster with 24 samples.

Results

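The fat body of giant, tumour-bearing Drosophila melanogaster larvae at day 8 after egg laying was compared with that of the oldest control larvae, at day 5. The comparison takes the 4 libraries labelled S35748 at day 8 against the 4 labelled S36303 at day 5, 8 of the 24 libraries of the series, chosen by these labels and not by any measured value. The tumour larvae carried C855a-Gal4 with UAS-scrib-RNAi and the control larvae C855a-Gal4 with UAS-control-RNAi, so both groups carry the driver and an RNAi transgene. C855a-Gal4 is described by the submitters as active in epithelia. The tumours form in the wing discs, and the affected larvae never form pupae. Each library is a pool of fat bodies from 50 larvae hatched from eggs laid within 3 hours. The other groups, 4 libraries each, are control larvae of day 4 and tumour larvae of days 4, 5 and 11. There is no control of day 8, so age and genotype differ together in this comparison and cannot be told apart. Day 4 controls and day 5 tumour larvae are therefore given beside the main values where they place a level. Whether the pools of 1 group were raised apart is not stated, and p-values here cover the spread between these pools, which may be technical.

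The larval fat body is the fly's counterpart of liver and adipose tissue. It stores triacylglycerol and glycogen, secretes haemolymph proteins including storage hexamerins, makes most antimicrobial peptides, and reads nutrient and steroid signals. Scrib is a polarity protein whose loss turns imaginal discs into overgrowing, non-differentiating tumours, and such discs are known to secrete Upd cytokines, the insulin antagonist ImpL2 and the relaxin-like peptide Ilp8, which delays metamorphosis. In control larvae the last day before pupariation is the time when ecdysone, the moulting steroid, reaches the fat body and switches it from growth and secretion to uptake and breakdown of stored material. In these data control larvae of days 4 and 5 differed from each other in 4790 of 8707 genes, 55% of those tested, so the control side of the comparison is itself a tissue in transition.

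The deposited counts sum to 16074877 to 18562382 per library in the tumour group at day 8 and 16477328 to 19419063 in the day 5 controls. Levels are given as CPM, a gene's count scaled to the library's size by TMM, listed in order of replicate number, and a log2 fold change is day 8 tumour minus day 5 control with its standard error (SE) unless another pair is named. A gene is called when the adjusted p of edgeR's quasi-likelihood test is under 0.05. The SE is back-calculated, as the size of the log2 fold change divided by the square root of that test's F. It is only approximate for genes near 0 counts in 1 group. Of 8707 genes tested, 4733 (54.4%) were called, 2190 (25.2%) higher and 2543 (29.2%) lower in the tumour group, against 5163 at an unadjusted p under 0.05, and the median log2 difference over all genes was 0.03. Every direction given here is relative to the bulk of genes, because TMM sets that median near 0. List counts of this comparison below are to be read beside the 25.2% and 29.2%. TMM factors were 1.28 to 1.44 in the tumour libraries and 0.855 to 0.916 in the day 5 controls, whose storage proteins hold more of the counts. Scaled by library totals alone, the median moves to 0.64, and 4979 genes are called higher and 844 lower, so that 85.5% of calls are on the higher side in place of 46.3%. Against day 4 controls and day 5 tumour larvae the median moves to 0.78 and 0.50. Library totals are a relative measure as well, and storage proteins hold 41.0% of them in day 5 controls and 14.7% in day 8 tumour larvae. Neither scaling gives an absolute amount of RNA. Whether a value near or under this shift is lower depends on the scaling used. A difference of at least 2-fold was called for 1249 genes higher and 896 lower, and of at least 8-fold for 291 higher and 144 lower. The 4 tumour libraries did not overlap the 4 day 5 controls for 52.8% of genes, and lay outside all 8 control libraries of both days for 2424 genes (27.8%), 1146 of them above (13.2%) and 1278 below (14.7%). Of the 2190 genes higher at day 8, 1604 were already called higher in tumour larvae at day 5 against the same controls, and of the 2543 lower genes 1940 were already called lower, in a comparison that calls 26.7% of all genes higher and 28.2% lower and uses the same day 5 controls.

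The targeted gene, scrib, was at 32, 35.7, 41.8 and 35.4 CPM in the tumour libraries and 43.4, 48.4, 41.4 and 43.2 in the controls, groups that overlap in 1 tumour library. The log2 difference was -0.28 ± 0.10 (adjusted p = 0.0165), and it was no longer called without tumour replicate 1 (-0.23, adjusted p = 0.0622) or control replicate 2 (-0.24, adjusted p = 0.0551). By library totals it turns to 0.34 (adjusted p = 0.0145). Whether the driver is active in the fat body was not tested. Of the tumour signals named above, upd3 and Ilp8 were close to absent, as expressed in summed counts over 4 libraries. There were 12 counts of upd3 in the tumour group against 3 in the controls, and 12 counts of Ilp8 against 0. ImpL2, which was not near absent, is given below. The upd3 ratio is 2.8, with an exact 95% interval of 0.754 to 15.4 that covers counting error only. The labelled tissue was checked with apolpp, which encodes the apolipoprotein precursor of lipophorin, at 11327, 13168, 14141 and 14152 CPM in the tumour group and 14710.2, 13826, 11264 and 14939 in the controls, a difference of -0.05 ± 0.12 (adjusted p = 0.733), or 0.58 by library totals (adjusted p = 1.92e-04). Of the 10 fat body markers, apolpp among them, 3 were called higher and 5 lower (30% and 50%). Over all genes these shares were 25.2% and 29.2%. By library totals 4 of the markers were higher and 4 lower. RNA of other tissues was uneven. Summed salivary gland markers reached 193, 1.23, 1.25 and 0.38 CPM in the tumour libraries and 285, 54.2, 1667 and 35.9 in the controls, and gut markers 252, 13.2, 19 and 21.5 and 262, 6.16, 2.25 and 185.

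The storage proteins held much less of the RNA in the tumour group. Together, the 3 Lsp1 hexamerin subunits, Lsp2, Fbp1 and Fbp2 took 41.0 ± 1.49% (SD, n = 4) of all counts in day 5 controls and 14.7 ± 3.68% in day 8 tumour larvae, against 42.8 ± 1.96% in day 4 controls and 32.1 ± 4.31% in day 5 tumour larvae. All 6 were tested, 5 were called lower and none higher, with a median log2 difference of -1.54 against 0.03 over all genes, or 4 lower and a median of -0.94 against 0.64 by library totals. In bulk tissue, fewer cells and less RNA per cell cannot be told apart.

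Fbp1, the receptor through which the fat body takes hexamerins back up from the haemolymph, is induced by ecdysone in normal larvae. It lies at chromosome arm 3L, 14094589 to 14098053 in the BDGP6.54 annotation. Its level was 298646, 263810.0, 246520.0 and 274954 CPM in the day 5 controls and 10032, 13280.0, 16381 and 15697 in the tumour group. The groups are far apart, at -4.29 ± 0.67 (adjusted p = 1.72e-05), although day 8 tumour larvae were above day 5 tumour larvae, which ranged from 949.6 to 4436 CPM (2.21 ± 0.61, adjusted p = 0.011). Day 4 controls spread from 2268 to 74777 CPM.

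The hexamerin subunits are haemolymph proteins laid up as an amino acid reserve for metamorphosis. Lsp1alpha stood at 3972, 2556, 1411 and 582 CPM in the tumour libraries and 33957, 41167, 39151 and 33024 in the controls, -4.11 ± 0.55 (adjusted p = 2.31e-06). Every tumour library was below every control of both days, and day 5 tumour larvae were still at 19676 to 49387 CPM. Lsp1gamma was lower too, with 22801, 18842, 14959 and 16708 CPM against 48614, 63195, 61779 and 52016 (-1.62 ± 0.18, adjusted p = 1.98e-07). Lsp1beta overlapped between the groups, at 93311, 76945, 40803 and 40282 CPM and 64401, 85346, 76617 and 61691 (-0.20 ± 0.25, adjusted p = 0.524, and 0.39 by library totals). The subunits are similar in sequence, and how shared reads were counted is not given in the sources used here. Lsp2, a hexamerin of the last larval instar, was at 5567, 4900.2, 4699 and 4774 CPM against 6435, 6775, 6878 and 6666, -0.42 ± 0.16 (adjusted p = 0.0269), and this call is lost when tumour replicate 2, 3 or 4 is left out (adjusted p of 0.0521 to 0.0614). As a share of all counts Lsp2 was higher in every tumour library, 0.637 to 0.712% against 0.550 to 0.630%, and by library totals it differed by 0.19 (adjusted p = 0.259). Fbp2, which is related to alcohol dehydrogenase, had 14530.2, 8452, 5127 and 2754 CPM against 19814, 22954, 22631 and 19301 (-1.46 ± 0.37, adjusted p = 0.0022), and its tumour libraries span from 2754 to 14530.2 CPM.

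**Figure D1:**
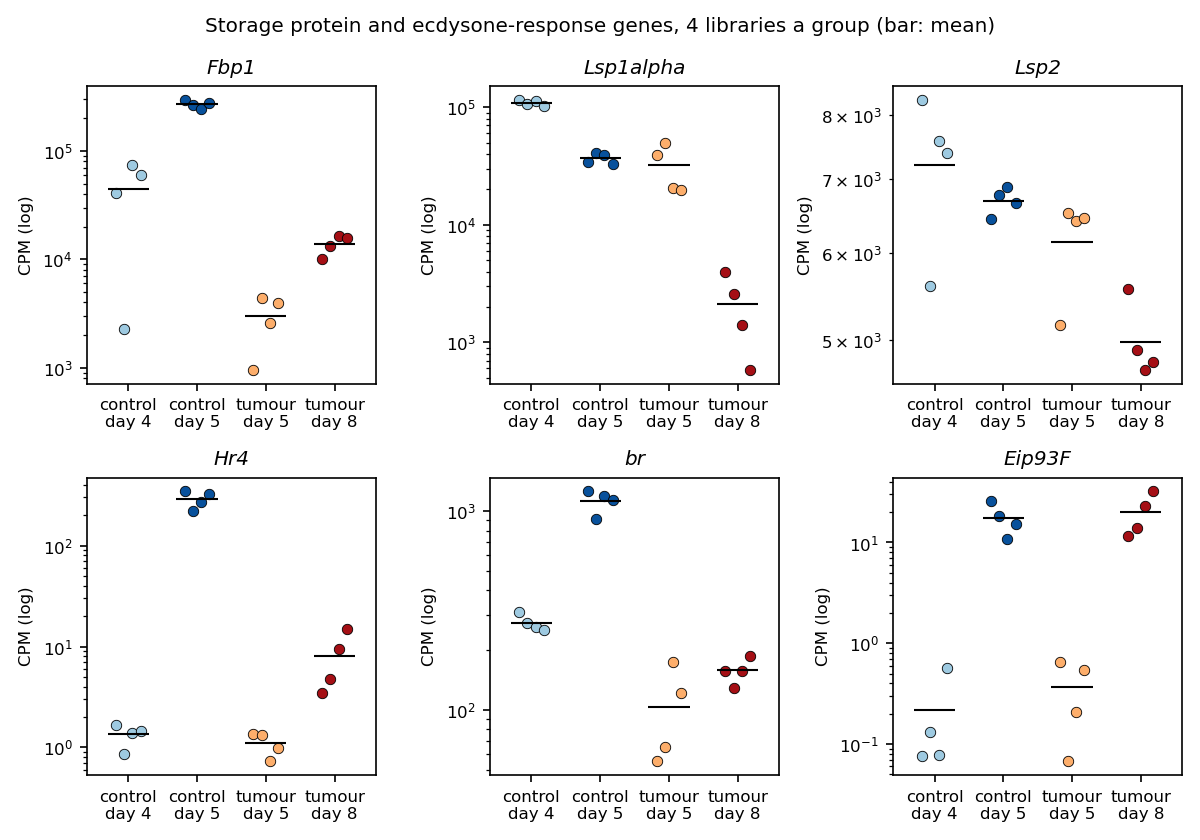
Level of 6 storage protein and ecdysone-response genes in every library of the control groups (days 4 and 5) and tumour groups (days 5 and 8), in CPM on a log axis, with a bar at each group's mean. Fbp1, Hr4 and br peak in the day 5 controls, Lsp1alpha is lowest in day 8 tumour larvae, and Eip93F is at a like level in day 8 tumour larvae and day 5 controls and near 0 in the others.

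Genes of the ecdysone response were mostly lower than in day 5 controls. Of 20 listed, 18 were tested, 12 were lower and 3 higher, with a median log2 difference of -1.06. Against day 4 controls the same list had 9 members higher and 1 lower, with a median of 0.79, where 27.1% of all genes were called higher and 30.1% lower. Between day 5 and day 8 of tumour growth 6 rose and 2 fell, beside 12% and 14% of all genes. Called both below day 5 and above day 4 controls were 5 of the 18 (E23, Eip63E, Eip75B, Eip78C and Hr4), 27.8% beside 3.79% of all genes.

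The early and early-late regulators are transcription factors switched on by the receptor EcR and its partner usp. Of these, Hr4, Eip75B and Eip78C were called both below day 5 and above day 4 controls. Hr4 was at 3.43, 4.72, 9.54 and 14.8 CPM in the tumour group and 347, 219, 271 and 324 in day 5 controls (-5.15 ± 0.43, adjusted p = 2.26e-09), with day 4 controls at 0.862 to 1.69 CPM. Eip78C had 3.81, 6.46, 9.97 and 13 CPM against 173, 118, 135 and 155 (-4.12 ± 0.31, adjusted p = 7.17e-10), and day 5 tumour larvae no more than 0.269 to 0.674 CPM. For both, every tumour library of day 8 lies between the day 4 and the day 5 controls. The ABC transporter gene E23, an ecdysone-induced gene, followed at 11.3, 18, 20.3 and 29 CPM against 409.7, 246, 349 and 349.5 (-4.10 ± 0.33, adjusted p = 1.81e-09). The Broad gene br, which specifies pupal fate, had 157, 129.5, 157 and 187 CPM against 1266, 913, 1202 and 1143 (-2.84 ± 0.33, adjusted p = 2.59e-07), and its day 8 level was below day 4 controls as well, at 252 to 310.3 CPM (-0.79 ± 0.31, adjusted p = 0.0321), though not by library totals (-0.03). Eip75B and Eip74EF were lower by -1.21 and -0.98 on the log2 scale, and the coactivator tai by -1.13, of which Eip74EF is not called by library totals (-0.36, adjusted p = 0.15). Against day 4 controls Eip74EF (0.23, adjusted p = 0.339) and tai (0.27, adjusted p = 0.11) were not called. By library totals both were higher than in day 4 controls (0.99 and 1.04). The largest fold of the list belongs to ImpE2, a gene named for its induction by ecdysone in imaginal discs, but it rests on few reads, 0.3, 0, 0 and 0.038 CPM against 1.58, 0.89, 0.506 and 14.6. Its log2 difference of -5.59 becomes -3.45 without control replicate 4 and -7.76 without tumour replicate 1.

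Eip93F, the transcription factor that drives fat body remodelling and autophagy at metamorphosis, did not follow the others. It was at 11.6, 14, 22.8 and 32.4 CPM at day 8 with tumours and 25.8, 18.4, 10.7 and 15.3 in day 5 controls, overlapping groups with a difference of 0.20 ± 0.33 (adjusted p = 0.619), or 0.86 by library totals (adjusted p = 0.0319). Day 4 controls had 0.0766 to 0.574 CPM and day 5 tumour larvae 0.0671 to 0.659, so the day 8 larvae stood 5.70 ± 0.46 above the latter on the log2 scale (adjusted p = 2.23e-08). Higher than in the day 5 controls were the receptor EcR, with 159, 151, 182 and 159.8 CPM against 71.1, 96, 91.6 and 62.4 (1.02 ± 0.21, adjusted p = 3.35e-04), and the competence factor ftz-f1, with 10.1, 9.998, 12.1 and 13.4 CPM against 2.12, 2.26, 2.64 and 1.84 (2.36 ± 0.14, adjusted p = 2.46e-11). In normal larvae ftz-f1 is expressed when ecdysone is low. usp was lower by -0.40, but by library totals differed by 0.22 (adjusted p = 0.0756).

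The juvenile hormone list, 9 tested, had 2 members higher and 1 lower (22.2% and 11.1%), under the 25.2% and 29.2% over all genes. By library totals 6 were higher and none lower. Kr-h1, the hormone's main transcriptional target and a brake on metamorphosis, was at 4.24, 3.63, 4.7 and 4.03 CPM in the tumour libraries and 9.09, 9.93, 10.5 and 9.1 in the controls, without overlap (-1.22 ± 0.26, adjusted p = 4.93e-04, or -0.59 and adjusted p = 0.0605 by library totals). Day 4 controls, at 1.52 to 4.68 CPM, overlap the tumour libraries. The receptors Met and gce did not pass the test, at 0.17 ± 0.12 and -0.01 ± 0.14, and are called higher by library totals (0.80 and 0.60). Of the epoxide hydrolases that break the hormone down, Jheh3 was higher by 1.06 ± 0.13 and Jheh1 by 0.90 ± 0.11. Jheh3 was not called against day 4 controls (0.10, adjusted p = 0.552), or was higher by 0.85 by library totals. It was lower than in day 5 tumour larvae (-0.39, adjusted p = 0.0316), though not by library totals (0.10, adjusted p = 0.432).

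All 5 Turandot genes that passed the count filter, of 8 listed, were higher in the tumour group, with a median log2 difference of 4.47, and each tumour library lay above all 8 controls for all 5. Over all genes 25.2% were called higher and 13.2% lay above all 8 controls. Turandots are small secreted stress proteins of the fat body, several of them known targets of JAK/STAT signalling. TotC was at 377, 392, 337 and 563 CPM against 7.09, 4.18, 3.83 and 4.58 (6.40 ± 0.35, adjusted p = 8.80e-12), and TotA at 8542, 9501, 10283 and 12742 against 2928, 3079, 2622 and 3200.0 (1.80 ± 0.27, adjusted p = 1.09e-05). TotB, at 17.3, 25.4, 28.7 and 64.9 CPM against 1.33, 1.92, 0.788 and 2.14, was also called above day 5 tumour larvae (4.47 ± 0.36, adjusted p = 1.37e-09, and 3.11 ± 0.32 between the tumour groups). TotZ was close to 0 in the controls, at 0.0606, 0.274, 0.0563 and 0 CPM, and at 4.11, 3.87, 6.69 and 13.6 in the tumour group, a log2 difference of 6.16 that becomes 7.28 without control replicate 2. TotE differed by 3.71, or 2.81 without tumour replicate 4, its highest library. All 5 were higher at day 8 than at day 5 in tumour larvae.

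The JAK/STAT pathway that Upd cytokines activate had 4 members higher and 2 lower of 8 tested (50% and 25%), beside 25.2% and 29.2% over all genes. The feedback inhibitor Socs36E, a common readout of the pathway, was at 58.3, 61.3, 54.6 and 96.5 CPM in the tumour libraries and 7.57, 13.6, 8.16 and 8.21 in the controls (2.86 ± 0.27, adjusted p = 1.46e-08). The receptor dome, with 30.4, 28.8, 27.6 and 32.9 CPM against 16.8, 19.9, 14.9 and 15 (0.85 ± 0.13, adjusted p = 1.82e-05), and the short receptor et (0.76 ± 0.09) were higher as well. The kinase hop (-0.36 ± 0.08) and the transcription factor Stat92E (-0.61 ± 0.13) were lower, Stat92E at 216, 267, 285 and 267 CPM against 467, 399, 322 and 389, but by library totals these are 0.26 and 0.02. For the 4 higher members every tumour library exceeded all 8 controls, which held for 13.2% of all genes.

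Toll-responsive peptides were higher, with a large spread between libraries. Of 13 Bomanin and Daisho peptides tested, 9 (69.2%, beside 25.2% of all genes) were called higher and none lower (median 2.71). Between day 5 and day 8 with tumours 12 rose, beside 12% of all genes. The count higher than in day 5 controls is 4 without tumour replicate 2, 5 without control replicate 4, and 3 when only the 8 libraries of the comparison are fitted. BomT2 was at 13.5, 31.7, 34.3 and 24.4 CPM against 0.0606, 2.74, 0.0563 and 0.476 (5.04 ± 0.57, adjusted p = 2.15e-07), and BomS6 at 3.55, 10.8, 8.89 and 4.34 against 0.0606, 0.548, 0 and 0.0595 (5.42 ± 0.57, adjusted p = 8.65e-08). Without control replicate 2, these log2 differences become 7.0 and 7.23. Dso2, with 1.03, 12.9, 2.29 and 1.33 CPM against 0, 1.23, 0.0563 and 0.0595, differed by 3.75, by 2.24 without tumour replicate 2 and by 6.59 without control replicate 2.

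Of the 15 antimicrobial peptides, 4 were called higher and none lower, a share of 26.7% beside 25.2% over all genes. Drs, the antifungal peptide drosomycin, was the member whose libraries did not overlap among the 4 called, at 717, 1631, 1357 and 1291 CPM against 221, 319.8, 135 and 340.5 (2.30 ± 0.63, adjusted p = 0.00407). Day 5 tumour larvae had 47.7 to 114 CPM, below the same controls (-1.81 ± 0.62, adjusted p = 0.0178), so Drs turned from lower to higher between days 5 and 8. In Dro, Def and Mtk, tumour replicate 2 was the highest library. Dro was at 15.4, 169, 22.4 and 25.9 CPM against 3.03, 21.6, 14.1 and 2.97, and its difference of 2.48 ± 0.73 (adjusted p = 0.00701) shrinks to 1.03 (adjusted p = 0.143) without tumour replicate 2. Def was at 0.6, 39.1, 0.388 and 1.14 CPM and differs by 2.18 (adjusted p = 0.142) without that library, from 6.0 with it. Mtk, at 12.6, 103, 29.3 and 13.5 CPM against 2.24, 25.5, 8.66 and 2.02 (2.05, adjusted p = 0.0303), is no longer called without tumour replicate 2 (0.95, adjusted p = 0.279), without control replicate 1, 3 or 4 (adjusted p of 0.0628 to 0.0884), or with only the 8 libraries. DptA overlapped, at 57.4, 469, 78.4 and 79.2 CPM and 25.5, 242, 109.8 and 42.1 (0.71 ± 0.86, adjusted p = 0.504). Over the list, 1 call is left without tumour replicate 2 and 9 are made without control replicate 2.

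**Figure D2:**
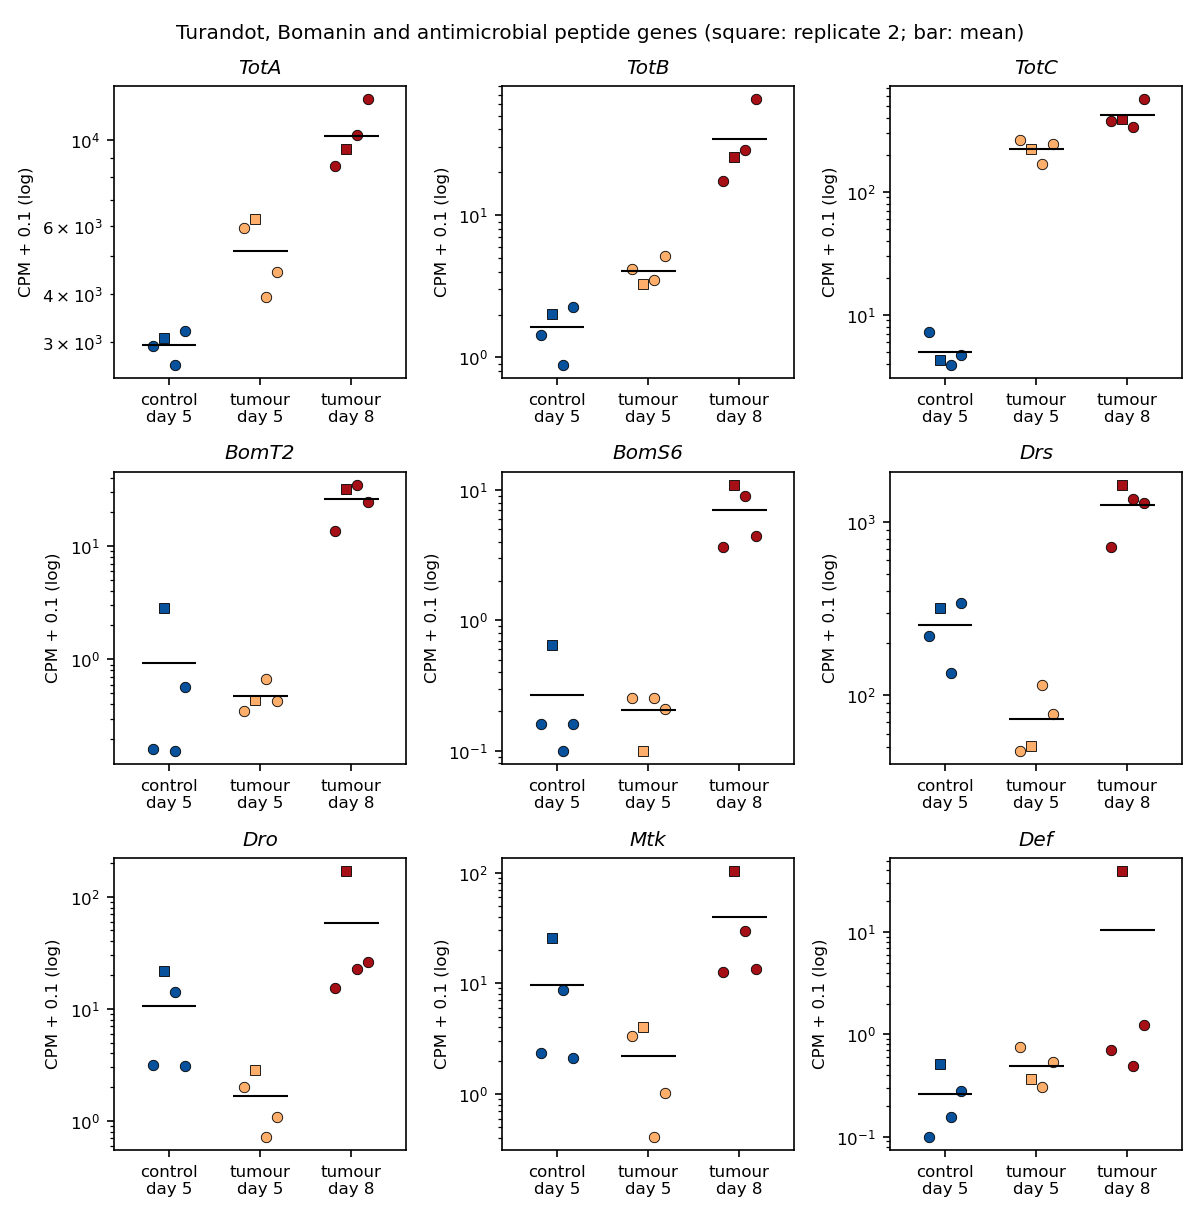
Level of 9 Turandot, Bomanin and antimicrobial peptide genes in every library of day 5 controls, day 5 tumour larvae and day 8 tumour larvae, in CPM plus 0.1 on a log axis; replicate 2 of each group is drawn as a square. Day 8 libraries sit above both other groups for TotA, TotB, TotC and Drs, while replicate 2 is the highest library of its group for Dro, Mtk and Def at day 8.

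Upstream of these peptides, the Toll pathway had 8 members higher and 4 lower of 17 (47.1% and 23.5%), beside 25.2% and 29.2% over all genes. The receptor Tl was at 321, 393, 327 and 438 CPM against 83.7, 116, 69 and 95.9 (2.02 ± 0.17, adjusted p = 2.34e-09), the protease SPE, which activates the ligand Spätzle, at 109, 146, 90.1 and 135 against 27.9, 43.4, 29 and 28.5 (1.90 ± 0.20, adjusted p = 7.53e-08), and the NF-kB factor Dif at 74.1, 81.4, 79.7 and 112 against 37.7, 35.6, 27.8 and 33.9 (1.36 ± 0.26, adjusted p = 1.41e-04). The other NF-kB factor, dl (1.29 ± 0.21), and the bacterial recognition protein GNBP1 (1.31 ± 0.11) were higher too. The kinase pll (-1.24 ± 0.12) and the protease grass (-1.19 ± 0.10) were lower. The Imd list had 5 higher and 5 lower of 16, shares near those over all genes, or 11 and 2 by library totals. Its inhibitor pirk was at 1.93, 2.45, 4.53 and 3.92 CPM against 19.1, 17.4, 15.9 and 22.4 (-2.54 ± 0.42, adjusted p = 2.85e-05), and the amidase PGRP-LB, which degrades peptidoglycan, was higher (1.09 ± 0.22). In the melanisation list, 5 were higher and 2 lower of 8, led by yellow-f2, a dopachrome-converting enzyme (2.87 ± 0.48), and by the clip protease Sp7, at 84.7, 97.6, 92.6 and 104 CPM against 547, 369, 389 and 520.5 (-2.27 ± 0.15, adjusted p = 5.52e-11). Haemocyte markers, given below, differed alongside these lists, and their part was not tested.

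Insulin and TOR signalling had 11 members higher and 8 lower of 22 (50% and 36.4%), beside 25.2% and 29.2% over all genes. By library totals 15 were higher and 2 lower, and at a minimum of 1.5-fold 3 were higher and 3 lower. The insulin receptor InR was at 69.8, 73.9, 82.9 and 90.9 CPM in the tumour group against 29.2, 25.4, 26.9 and 29.1 (1.52 ± 0.17, adjusted p = 2.08e-07), above every control library and above day 5 tumour larvae at 21.6 to 37.2 CPM. The transcription factor foxo, which insulin signalling holds back and which in flies raises InR transcription, was at 106, 94.4, 108 and 124 CPM against 237, 208, 203 and 226 (-1.02 ± 0.14, adjusted p = 3.97e-06). Thor, the translational repressor 4E-BP and another foxo target, was at 692, 534, 654 and 522 CPM against 1153, 1033, 868 and 1134 (-0.80 ± 0.26, adjusted p = 0.0141), and above day 4 controls at 62.6 to 161 CPM (2.24 ± 0.27, adjusted p = 5.43e-07). By library totals Thor differed from day 5 controls by -0.18 (adjusted p = 0.53). The kinase S6k (1.24 ± 0.12) and the transcription factor REPTOR, held back by TOR, (1.48 ± 0.27) were higher and mTor lower, at 42.7, 43.9, 48.8 and 47.1 CPM against 109.8, 86, 104 and 111 (-1.17 ± 0.09, adjusted p = 1.10e-09).

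Secreted factors followed in both directions. ImpL2, which binds and blocks insulin-like peptides, was at 207, 204, 194 and 256 CPM against 134, 145, 110.0 and 115 (0.77 ± 0.16, adjusted p = 3.90e-04), and Ilp6, the insulin-like peptide of the fat body, at 319.8, 305, 363 and 339 against 523, 512, 478 and 502 (-0.60 ± 0.20, adjusted p = 0.0166, or 0.02 by library totals). The growth-blocking peptides, some of which relay feeding status to the brain, were split. Gbp1 was lower (-1.13 ± 0.18), and Gbp2 (0.83 ± 0.10) and Gbp3 (0.62 ± 0.09) were higher. In the list of systemic tumour signals as a whole, 3 were higher and 1 lower of 13, under the 25.2% and 29.2% over all genes. The higher count is 5 with a replicate block, 9 by library totals and 1 at a minimum of 1.5-fold.

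The adipokinetic hormone and TGF-beta sugar-signalling list had 6 members higher and 1 lower of 10 (60% and 10%), beside 25.2% and 29.2% over all genes. AkhR, the receptor for the glucagon-like hormone AKH, was at 329, 307, 291 and 317 CPM against 108, 128, 72.5 and 106 (1.59 ± 0.16, adjusted p = 5.46e-08). The sugar-responsive regulator sug, at 142, 179, 145 and 125 CPM against 32.9, 56.6, 48 and 31.3, differed by 1.81 ± 0.34 (adjusted p = 1.44e-04), and the glucosidase tobi, which responds to both AKH and insulin, by 2.60 ± 0.48 (adjusted p = 1.17e-04). Mondo, the sugar sensor upstream of sug, was lower, at 75.3, 80.5, 81.3 and 85.1 CPM against 169, 194, 255 and 161 (-1.28 ± 0.14, adjusted p = 1.37e-07).

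The proteasome degrades ubiquitin-tagged proteins. All 31 members tested, of 32 listed, were lower, beside 29.2% of all genes, with a median log2 difference of -0.97. For 30 of them every tumour library was below all 8 controls, beside 14.7% of all genes. By library totals 21 are lower and none higher (median -0.34), and against day 4 controls 4 are higher and 4 lower. Rpn12, a regulatory-particle subunit, was at 28.5, 23.9, 30.3 and 25.2 CPM against 74.9, 66.7, 60.6 and 77 (-1.37 ± 0.10, adjusted p = 1.77e-10), and Rpn3 at 58.3, 48.1, 57.2 and 54 against 144, 121, 111 and 146 (-1.26 ± 0.09, adjusted p = 4.22e-10). All 31 were already lower at day 5 in tumour larvae (median -1.16), and 6 rose between days 5 and 8, or 30 by library totals.

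Cytosolic ribosomal proteins went the other way by a small amount. Of 81 tested, 73 were higher and none lower than in day 5 controls, with a median of 0.44, and 4 pass when the test asks for at least 1.5-fold. RpL5 was at 3448, 3494, 2981 and 3188 CPM against 1713, 1856, 1808 and 1713 (0.89 ± 0.09, adjusted p = 2.63e-08) and RpLP0, of the ribosomal stalk, at 2336, 2339.7, 1957 and 2037 against 1255, 1364, 1323 and 1213 (0.75 ± 0.09, adjusted p = 3.30e-07). Against day 4 controls only 3 were higher and 25 lower (median -0.16), and 61 fell between days 5 and 8 with tumours, but by library totals 81 are higher than in day 5 controls, 78 higher than in day 4 controls, and 19 rose and 1 fell between the tumour days. Mitochondrial ribosomal proteins had 1 member higher and 18 lower of 71 (1.41% and 25.4%), under the 25.2% and 29.2% over all genes. This turns to 33 higher and 2 lower by library totals, and 2 are lower at a minimum of 1.5-fold. The single higher call is lost without any 1 of 6 libraries and becomes 3 without control replicate 3. All 71 were lower than in day 4 controls, or 28 lower and 1 higher by library totals. Ribosome biogenesis factors had 3 higher and none lower of 23, a count that becomes 19 without control replicate 3, the library with most salivary gland RNA. Initiation factors had 8 higher and 7 lower of 27, near the shares over all genes, or 19 and 1 by library totals, from eIF4A, the RNA helicase (0.78 ± 0.10), to eIF2Bdelta, a subunit of the guanine exchange factor (-1.38 ± 0.11).

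Genes of protein export were lower relative to other genes. Of 23 early secretory genes tested, 16 were lower and none higher (median -0.45), all 23 were lower than in day 4 controls, and 3 pass a minimum of 1.5-fold against day 5. By library totals the list turns to 6 higher and 2 lower (median 0.15) against day 5 controls, with 18 lower against day 4. Sec24AB, a COPII cargo adaptor, was at 73.4, 82.2, 82.8 and 75.9 CPM against 217, 190.0, 226 and 209 (-1.42 ± 0.09, adjusted p = 4.15e-11), and Sec61beta, of the translocon, at 78.9, 81.7, 77.7 and 62.2 against 112, 142, 249 and 146 (-1.11 ± 0.21, adjusted p = 1.28e-04). Among the endoplasmic reticulum chaperones 7 were lower and 2 higher of 15, or 1 and 7 by library totals. Hsc70-3, the fly BiP, was at 646, 974, 780.4 and 629.8 CPM against 1890.3, 2199, 3338 and 2145 (-1.66 ± 0.22, adjusted p = 1.62e-06), with CaBP1 (-1.14 ± 0.24) and ERp60 (-0.84 ± 0.13), both disulfide isomerase-like, lower as well, though not called by library totals (-0.53 and -0.22). Herp, which acts in degradation of misfolded proteins, was higher (1.24 ± 0.17).

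**Figure D3:**
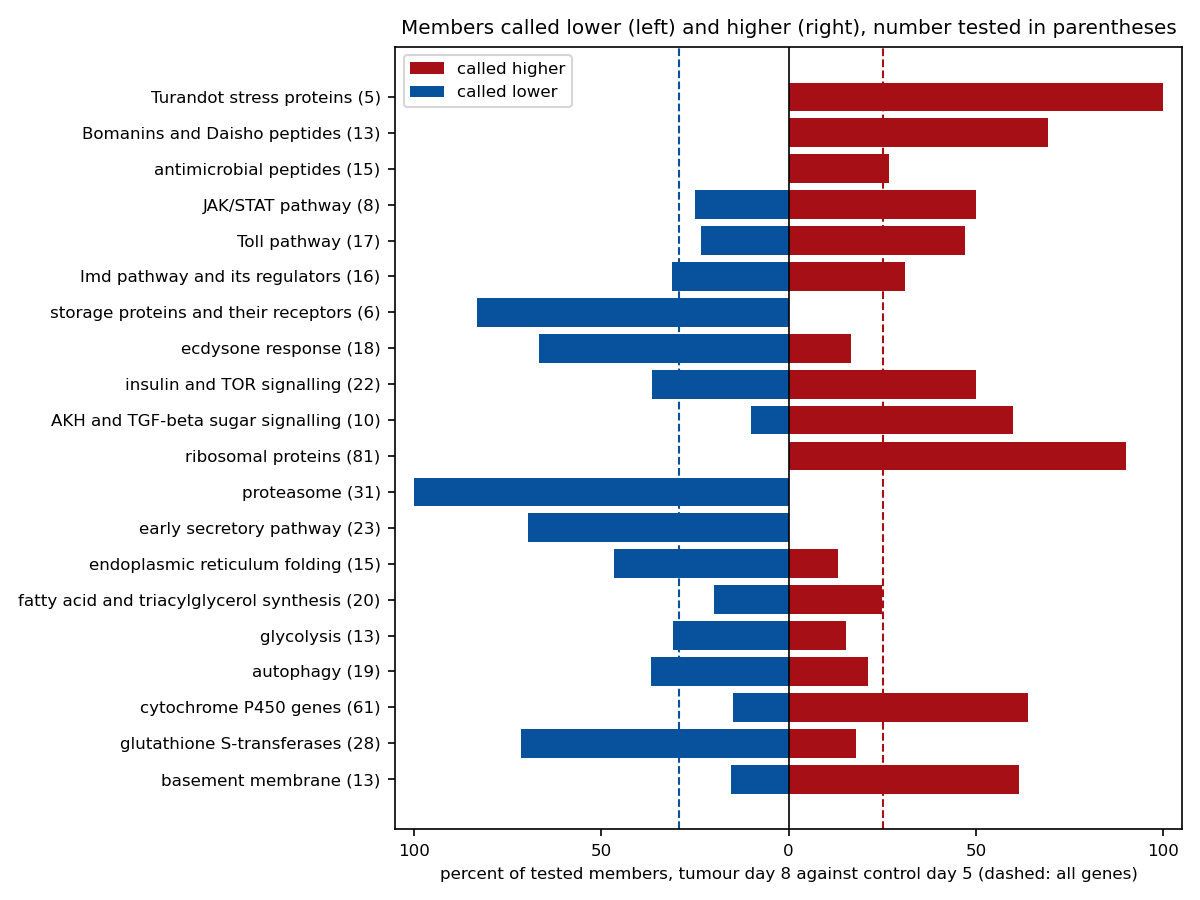
Share of the tested members of 20 gene lists called higher (right) or lower (left) in day 8 tumour larvae than in day 5 controls, in percent, with the number tested beside each list; dashed lines mark the shares over all genes, 25.2% and 29.2%. The proteasome bar reaches 100% on the lower side and the Turandot bar 100% on the higher side. Directions are after TMM scaling, and by library totals the calls of the early secretory, endoplasmic reticulum folding, glycolysis and autophagy lists turn to mostly higher.

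Of 20 lipid synthesis genes tested, 5 were higher and 4 lower, near or under the 25.2% and 29.2% over all genes, or 10 and 2 by library totals, and the higher count is 3 without tumour replicate 1 or 2 or control replicate 1 or 4. ATPCL, the citrate lyase that supplies cytosolic acetyl-CoA, was at 78.7, 64.4, 59.7 and 54.7 CPM against 464, 411, 497 and 402 (-2.78 ± 0.23, adjusted p = 2.35e-09). FASN1, the fatty acid synthase, was at 770.3, 851, 750.4 and 489 CPM against 1761, 2140.4, 1226 and 1959 (-1.31 ± 0.23, adjusted p = 6.41e-05). Day 5 tumour larvae had 3927 to 5425 CPM, above the same controls (1.45 ± 0.23, adjusted p = 1.73e-05), so FASN1 passed from higher to lower. Desat1, the delta-9 desaturase, was higher, at 2648, 2787, 2526 and 2336 CPM against 803, 948, 444 and 691 (1.84 ± 0.22, adjusted p = 4.17e-07), as were the malic enzyme Men (1.42 ± 0.16) and SCAP, the escort of SREBP (1.49 ± 0.10). Both Desat1 and Men were lower at day 8 than at day 5 with tumours, by -1.14 ± 0.22 and -1.58 ± 0.17. In the list as a whole, 15 members fell and none rose between those days, beside 14% and 12% of all genes. By library totals 12 fell and 2 rose.

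On the lipid-using side 4 were higher and 2 lower of 18, under the 25.2% and 29.2% over all genes. By library totals 16 were higher and 1 lower. The lipase gene Lip4 was at 238, 179, 247 and 314 CPM against 80.9, 96.7, 72.6 and 85.9 (1.54 ± 0.16, adjusted p = 8.18e-08) and whd, the carnitine palmitoyltransferase that admits fatty acids to mitochondria, at 494, 464, 519 and 567 against 210.3, 285, 179 and 248 (1.15 ± 0.14, adjusted p = 7.02e-07). Hsl, the hormone-sensitive lipase, was higher (0.91 ± 0.13). The triacylglycerol lipase bmm did not pass, at 76.1, 63.7, 81.2 and 88.2 CPM against 66.2, 64, 58.9 and 65.1 (0.28 ± 0.17, adjusted p = 0.172), and does so when only the 8 libraries are fitted (0.31, adjusted p = 0.0289) or by library totals (0.91). Lsd-1, the perilipin of lipid droplets, was lower, at 797, 859.8, 978 and 757 CPM against 1971, 1865, 1447 and 1791 (-1.06 ± 0.11, adjusted p = 9.58e-08). Of the lipoprotein list, Apoltp, the lipid transfer particle, was at 1179, 1377, 1429 and 1304 CPM against 252, 295, 321 and 289 (2.19 ± 0.25, adjusted p = 2.04e-07), and the lipocalin NLaz at 26.6, 24.6, 38.4 and 44.1 against 239.9, 168, 122 and 273 (-2.59 ± 0.27, adjusted p = 6.25e-08).

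**Figure D4:**
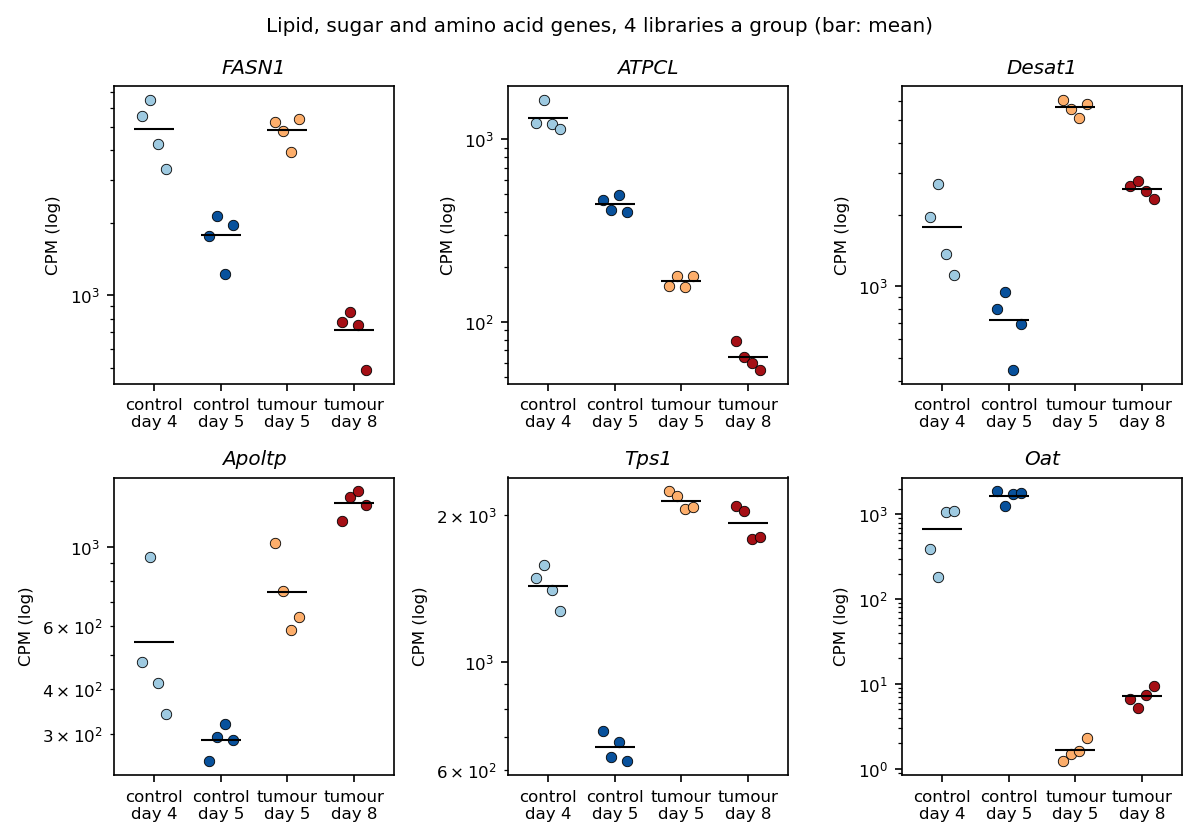
Level of 6 lipid, sugar and amino acid genes in every library of both control and the day 5 and day 8 tumour groups, in CPM on a log axis, with a bar at each group's mean. Day 8 tumour larvae are lowest for FASN1 and ATPCL, Desat1 and Tps1 lie above the day 5 controls, and Oat is lower in both tumour groups than in either control group.

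Sugar metabolism held differences in both directions. Of 9 glycogen and trehalose genes tested, 5 were higher and 1 lower (55.6% and 11.1%), beside 25.2% and 29.2% over all genes. By library totals 8 were higher and none lower, and at a minimum of 1.5-fold 2 were higher. Against day 4 controls 2 were higher and 5 lower, or 4 and 4 by library totals. In glycolysis 2 genes were higher and 4 lower of 13, or 9 and none by library totals, and 11 were lower than in day 4 controls and 11 fell between days 5 and 8 with tumours. The hexokinase Hex-A was at 309, 328, 311 and 357 CPM against 96.2, 110.2, 101 and 85.3 (1.73 ± 0.14, adjusted p = 9.22e-10), and Hex-C, the fat body form, at 22.2, 18.5, 17.7 and 20.9 against 1.21, 2.46, 1.24 and 2.62 (3.40 ± 0.77, adjusted p = 8.94e-04). Pyruvate kinase, PyK, was lower, at 108, 99.1, 95.6 and 88.9 CPM against 211, 202, 211 and 203 (-1.08 ± 0.23, adjusted p = 4.33e-04), but not called by library totals (-0.46, adjusted p = 0.0959). Tps1, which makes trehalose, the main sugar of fly haemolymph, was at 2085, 2035, 1781 and 1805 CPM against 722, 639.8, 684 and 625 (1.53 ± 0.09, adjusted p = 2.71e-11), and the glycogen primer Gyg was higher (1.15 ± 0.26). In the tricarboxylic acid cycle 5 were higher and 3 lower of 15 (33.3% and 20%), beside 25.2% and 29.2% over all genes. The higher members were led by Ogdh (1.95 ± 0.15) and ScsbetaA (1.60 ± 0.11). Oxidative phosphorylation had 8 higher and 4 lower of 58, which becomes 4 and 7 without the 2 libraries with most salivary gland RNA (tumour replicate 1 and control replicate 3) and 52 and 1 by library totals. Against day 4 controls 56 were lower, or 41 by library totals.

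Amino acid breakdown had 6 higher and 6 lower of 16. Oat, the ornithine aminotransferase, at chromosome arm 3L, 19647280 to 19649851, had the largest lower fold of any listed gene outside the salivary markers, at 6.68, 5.23, 7.47 and 9.44 CPM against 1887, 1243, 1756 and 1776 (-7.85 ± 0.56, adjusted p = 3.26e-10). Day 5 tumour larvae had 1.22 to 2.29 CPM and day 4 controls 182 to 1086, so the gene was low with tumours at both days. The folate enzymes Shmt, at 371, 344, 332 and 302 CPM against 1639, 1257, 1817 and 1390.2 (-2.18 ± 0.12, adjusted p = 7.67e-12), and Nmdmc (-4.20 ± 0.48), which overlaps Rel in the annotation, were lower. The sarcosine dehydrogenase Sardh (1.85 ± 0.11), the S-adenosylmethionine synthetase Sam-S (1.55 ± 0.18) and the tryptophan oxygenase v (1.81 ± 0.16) were higher. Sardh had 749.9, 776, 710.3 and 762 CPM against 214, 218, 190.0 and 211.

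Autophagy genes, which ecdysone induces before metamorphosis, had 7 lower and 4 higher members of 19, or 4 and 11 by library totals. Atg7, an E1-like activating enzyme, was at 16.2, 19.2, 27 and 27.4 CPM against 222, 149, 146 and 209.6 (-3.01 ± 0.19, adjusted p = 2.75e-11), Atg1, the initiating kinase, at 25.9, 22.3, 18.9 and 21.1 against 161, 125, 123 and 140.1 (-2.64 ± 0.24, adjusted p = 1.06e-08), and the E2-like Atg3 was lower (-1.36 ± 0.11). Day 4 controls had 15.2 to 18.9 CPM of Atg7 and 27 to 58.4 of Atg1. The lysosomal list had 9 lower and 4 higher of 20, with 1 lower at a minimum of 1.5-fold and none lower and 14 higher by library totals. Its proteases CtsL1, at 534, 576, 650.5 and 769 CPM against 169.9, 139.9, 106 and 177 (2.09 ± 0.25, adjusted p = 3.79e-07), and CtsF (1.07 ± 0.14) and the glucocerebrosidase Gba1b (1.20 ± 0.23) were higher.

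Of 61 cytochrome P450 genes tested, 39 were higher and 9 lower (63.9% and 14.8%, median 1.49), beside 25.2% and 29.2% over all genes. Above all 8 controls lay 25 of them, beside 13.2% of all genes. Cyp4e3, at chromosome arm 2L, 9747839 to 9750071, had the largest rise of all genes that met the level and overlap conditions, at 1675, 1317, 1119 and 1040.0 CPM against 2.54, 4.38, 2.87 and 2.02 (8.77 ± 0.47, adjusted p = 7.15e-12). Most of it, 6.88 ± 0.44, was present at day 5, and 1.89 ± 0.34 was added by day 8. Cyp6a2, known for induction by xenobiotics, was at 9.85, 16.3, 16.4 and 13.4 CPM against 0.364, 0.411, 0.0563 and 0.119 (5.89 ± 0.48, adjusted p = 2.08e-09). Of the UDP-glycosyltransferases 10 were higher and 3 lower of 20, among them Ugt50B3 (2.85 ± 0.34), while their summed level was lower, at 359, 377, 342 and 367 CPM against 788, 588, 479 and 735.

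Of 28 glutathione S-transferases tested, 20 were lower and 5 higher (71.4% and 17.9%, median -1.34), beside 29.2% and 25.2% over all genes. Below all 8 controls lay 18 of the list, beside 14.7% of all genes. The lowest folds belonged to a cluster of GstD genes, with GstD4 at 0.128, 0.377, 0.0863 and 0.228 CPM against 9.21, 6.09, 18.8 and 10.8 (-5.75 ± 0.52, adjusted p = 9.48e-09) and GstD9 at 2.48, 1.6, 0.561 and 1.6 against 26, 15.9, 52.6 and 26.9 (-4.28 ± 0.45, adjusted p = 7.20e-08). These genes are close copies, and shared reads could be split between them. In oxidative stress defence 7 were higher and 6 lower of 14, and the higher count is 4 without tumour replicate 2. The catalytic subunit of glutathione synthesis, Gclc, was higher (1.54 ± 0.24), and catalase, Cat, was at 706, 677, 622 and 667 CPM against 1784, 1319, 1217 and 1619.6 (-1.15 ± 0.12, adjusted p = 3.36e-08). Of the heat shock proteins 4 were lower and 1 higher of 11, or 3 and 4 by library totals, and the higher count is 0 to 2 when 1 library is left out. Hsp23, a small chaperone that ecdysone also induces, was at 42.2, 154, 157 and 146 CPM against 7236, 5927, 4807 and 7594 (-5.68 ± 0.72, adjusted p = 1.18e-06), and Hsp27 at 36.1, 103, 39.7 and 100.5 against 1048, 663, 663 and 968 (-3.58 ± 0.68, adjusted p = 1.64e-04). The iron carrier Tsf1 was higher, at 1381, 1577, 795 and 1093 CPM against 610.5, 639.9, 286 and 438 (1.30 ± 0.28, adjusted p = 5.50e-04).

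Basement membrane genes, 13 tested, had 8 higher and 2 lower (61.5% and 15.4%), beside 25.2% and 29.2% over all genes. The lower count is 1 without tumour replicate 1 or 2 or control replicate 1 or 4. Ppn, the matrix protein papilin, was at 94.9, 96.1, 109 and 139 CPM against 6.54, 6.57, 4.05 and 8.15 (4.12 ± 0.26, adjusted p = 3.41e-11), and nidogen, Ndg, at 89.3, 66.9, 74.5 and 68.2 against 12.9, 6.37, 11.5 and 10.1 (2.87 ± 0.20, adjusted p = 1.29e-10). Both collagen IV chains, which the fat body secretes for other organs, were higher than in day 5 controls, Col4a1 at 3425, 3211, 2906 and 3414 CPM against 1504, 1616, 1795 and 1551 (1.00 ± 0.18, adjusted p = 9.61e-05) and vkg by 1.04 ± 0.21. Against day 4 controls Col4a1 was lower, though not by library totals (0.07), by -0.69 ± 0.18 (adjusted p = 0.00304). The collagen chaperone SPARC was higher (1.08 ± 0.12) and the laminin chain LanB1 lower, at 45.7, 43.9, 60.9 and 69 CPM against 349, 273, 269 and 361 (-2.51 ± 0.20, adjusted p = 1.25e-09). Mmp2, the membrane-anchored metalloprotease that dissociates fat body cells at metamorphosis, was at 4.58, 13.8, 14.8 and 29.6 CPM against 90.9, 75.9, 50.5 and 77.2 (-2.23 ± 0.43, adjusted p = 1.82e-04), with day 5 tumour larvae at 0.403 to 1.3 CPM. The integrin mew was higher (2.08 ± 0.14).

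Haemocyte markers moved with this list, and Pxn belongs to both. Of 11 tested, 8 were higher and 1 lower. Hml, the haemocyte protein hemolectin, was at 85.7, 81.7, 108 and 132 CPM against 13, 10.8, 6.98 and 8.92 (3.36 ± 0.28, adjusted p = 2.33e-09), the scavenger receptor Sr-CI at 21.5, 23.5, 29.3 and 34.1 against 2.48, 2.46, 2.53 and 1.9 (3.53 ± 0.28, adjusted p = 1.33e-09), and the peroxidasin Pxn at 94.4, 84.5, 109.9 and 141 against 27.9, 18.7, 18.2 and 14 (2.45 ± 0.25, adjusted p = 4.70e-08). NimC2, a Nimrod receptor, went the other way, at 204, 267, 383 and 407 CPM against 4868, 3500.0, 3584 and 4508 (-3.71 ± 0.58, adjusted p = 1.73e-05), and alone makes the summed marker level higher in the controls, 4074 to 5485 CPM against 982 to 1330.1. NimC3 and lz did not pass the count filter. The part of haemocyte RNA in the basement membrane and immune results was not tested.

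DNA replication genes, tied to the endocycle by which fat body cells grow, had 9 higher and 2 lower of 27. These shares are 33.3% and 7.41%, beside 25.2% and 29.2% over all genes. The higher count is 14 with DESeq2 or only the 8 libraries, 22 by library totals and 5 at a minimum of 1.5-fold. The lower count is 1 without control replicate 3. Against day 4 controls 2 were higher and 3 lower, or 10 and 1 by library totals. CycE, the cyclin of S-phase entry, was at 12.1, 8.77, 10.1 and 15.1 CPM against 4.67, 3.49, 4.44 and 3.98 (1.47 ± 0.24, adjusted p = 2.51e-05), and was also above day 5 tumour larvae (1.11 ± 0.24, adjusted p = 0.00136).

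The largest differences of all genes outside these lists were mostly in genes of little known function. After Cyp4e3, the highest were CG14762, at 113, 141, 94.3 and 142 CPM against 0.303, 2.05, 0.281 and 0.178 (7.51 ± 1.01, adjusted p = 2.56e-06), CG14275 (7.24 ± 0.60) and RyR, the ryanodine receptor calcium channel, at 36.2, 36, 34 and 43.8 against 0.242, 0.342, 0.169 and 0.238 (7.23 ± 0.21, adjusted p = 5.80e-16). RyR was already at 36.8 to 44.9 CPM in day 5 tumour larvae and did not pass the test against them after TMM scaling (-0.09 ± 0.13, adjusted p = 0.663). CG13077 (6.88 ± 0.64), CG33462 (6.50 ± 0.45), CG1213 (5.90 ± 0.45), the neprilysin-like Nepl11 (5.73 ± 0.60) and CG12522 (5.59 ± 0.50) followed. Ids, the lysosomal iduronate sulfatase, was at 38.2, 51.5, 49.9 and 52.5 CPM against 0.969, 1.16, 0.619 and 0.773 (5.77 ± 0.27, adjusted p = 1.29e-12). Uro, the urate oxidase known from Malpighian tubules, was at 27.1, 20.9, 24.9 and 34.9 CPM against 0, 0.274, 0 and 1.37, a difference of 6.01 that is 8.24 without control replicate 4. CG14762 becomes 8.87 without control replicate 2 and CG12522 6.82 without control replicate 1.

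Of the 12 lowest, 5 were the salivary glue genes Sgs3, Sgs5, Sgs5bis, Sgs7 and Sgs8. Sgs3 was at 0.6, 0.33, 0.259 and 0.038 CPM in the tumour libraries and 114, 15.1, 659 and 11.2 in the controls, of which replicate 3 is highest for all 5. Glue genes are known as salivary gland genes that ecdysone induces. The part of gland tissue in the pools was not tested. The others include Oat, Hsp23 and sro, a Halloween-group gene of ecdysone synthesis, at 2.18, 1.93, 1.51 and 2.21 CPM against 108, 89.5, 84.1 and 101 (-5.60 ± 0.31, adjusted p = 1.10e-11). Drsl5, a drosomycin-like peptide gene, was at 4.33, 4.2, 9.71 and 27.6 CPM against 745, 492, 358 and 781 (-5.69 ± 0.79, adjusted p = 3.68e-06, and -6.61 without tumour replicate 4). CG6012 (-6.45 ± 0.95) and CG13594 (-5.62 ± 0.41) completed those with a symbol, and the identifier FBgn0259822 differed by -7.27 ± 0.57.

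A smaller set stood apart at day 8 from both control groups and day 5 tumour larvae. Tumour larvae of days 4 and 11 had no part in this rule. At day 11 the Bomanin and Daisho peptides summed to 1088 to 2367 CPM, against 272 to 1212 at day 8 with tumours. Lsp1alpha held 0.0814 to 0.458% of all counts at day 11 and 0.0824 to 0.508% at day 8. In 380 genes (4.36%) the day 8 level was called higher than in day 5 controls, day 4 controls and day 5 tumour larvae, and in 471 (5.41%) lower than in all 3. The largest smallest differences on the higher side were those of BomT2, CG33462, CG43402, CG14275, CG31326 and TotB. CG43402 was at 43.4, 42.2, 79.6 and 113 CPM against 1.58, 1.92, 1.63 and 1.13, and 2.94 to 5.03 in day 5 tumour larvae (5.48 ± 0.32, adjusted p = 2.00e-11), and CG31326 at 11.5, 20.8, 23.8 and 28.1 against 3.03, 2.46, 0.844 and 1.9 (3.36 ± 0.33, adjusted p = 3.06e-08). On the lower side they were Sgs5, sro, lncRNA:CR45348, Lsp1alpha, Yp3 and CG3348. Yp3, a yolk protein gene, was at 3.55, 1.84, 1.6 and 1.14 CPM against 51.7, 26.6, 22.8 and 106 (-4.67 ± 0.45, adjusted p = 2.00e-08), or -4.06 without control replicate 4, with 539.8 to 890.0 in day 4 controls. The noncoding lncRNA:CR45348 differed by -3.96 ± 0.65, or -4.88 without tumour replicate 1, and CG3348 by -2.98 ± 0.43, or -2.19 without control replicate 2, its highest control.

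Few genes crossed from one side of the day 5 controls to the other between days 5 and 8. There were 23 (0.264%) called lower at day 5 and higher at day 8, and 55 (0.632%) the reverse. Those with the clearest crossing upward were Dro, Mtk, Drs, eas and mfas. The ethanolamine kinase gene eas, of phospholipid synthesis, was at 99.9992, 80.3, 102 and 117 CPM at day 8, 43.1, 47, 45.7 and 42.9 in the controls and 9.63 to 25 in day 5 tumour larvae (1.16 ± 0.24 and -1.48 ± 0.24 against the controls). The adhesion protein mfas differed by 0.82 ± 0.17 and -0.77 ± 0.17 in the same order. Downward they were FASN1, CG10962, CG3609, CG3348 and Root. CG10962 was at 163, 109, 71 and 63.3 CPM at day 8, 409.9, 244, 344 and 271 in the controls and 910.4 to 1311 in day 5 tumour larvae (-1.64 ± 0.27 and 1.91 ± 0.27). CG3609 went from 1.47 ± 0.24 to -1.53 ± 0.25 and Root, which encodes rootletin and overlaps the highly expressed CG13607, from 1.11 ± 0.14 to -0.89 ± 0.14. The crossing of Dro and Mtk depends on the libraries named above, and Root is not called at day 8 by library totals (-0.28, adjusted p = 0.0827).

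Markers of other tissues did not all move with the tumour group. Summed muscle markers were 205 to 236 CPM in the tumour group against 88 to 126, with 2 of 11 higher and none lower. For the imaginal disc list the sums were 129 to 156 against 80.1 to 101 CPM, with 2 of 6 higher (1 without control replicate 1 or 3), and Dll and en did not pass the filter. Cuticle markers were 0.141 to 1.75 against 4.67 to 22 CPM, neuron markers 346 to 411 against 425 to 588, and testis markers 0.424 to 2.44 against 3.22 to 5.06. The sum of the fat body list itself, 93471 to 145394 CPM against 406177 to 437431, is mostly the storage proteins.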

How the data were processed

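RNA-seq of dissected larval fat body covers 24 samples, grouped by the genotype and day in their labels. The unit is whole-number counts per gene, not normalized, as deposited by the authors for 17698 gene identifiers. Paired-end reads of 150 bp are described in the labels' protocols. STAR 2.5.4a and the build BDGP6 are named, without a role, per the submitters' processing notes. The sources used here do not give the counting program, the annotation release or whether strand was used. Genes with a close copy (attacins, Lsp1 subunits, GstD genes, Sgs7 with Sgs8) and overlapping genes are therefore uncertain. Symbols were found by identifier for 17560 genes, and positions come from the annotation of BDGP6.54.

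Tools were R 4.3.3, edgeR 4.0.16, limma 3.58.1, DESeq2 1.42.0 and Python 3.11.15. The 8707 genes passing edgeR's filterByExpr were scaled by TMM and tested with its robust quasi-likelihood test, in 1 model of 6 group means over 24 libraries, with Benjamini-Hochberg adjustment over all genes tested. The code was tested on simulated data. Alternatives were RLE scaling, scaling without the 20 most abundant genes, DESeq2, no low-count filter, dispersion not robust, a minimum of 1.5-fold, a replicate block, the 8 libraries alone and each of these left out in turn. Scaling by library totals alone and leaving out the library of each group with most salivary gland RNA were added after seeing the data. No pair of libraries within the day 8 tumour or day 5 control group agreed within sampling noise, the closest pair having 9.54 for chi-square divided by degrees of freedom.

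The members and lists were chosen with earlier results of these data known. The 50 gene lists hold 1017 matched entries, and 20 entries were not matched. Genes named by rule were the 12 highest and 12 lowest called genes with at least 20 CPM and no overlap between the groups, up to 4 called members per list by size of difference, 11 genes given in every case, 6 per direction for the day 8 level outside both control groups and day 5 tumour larvae and 5 per direction for genes that turned. Other genes named were chosen after their values were seen.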

Additional observations from a re-analysis of the deposited data

Results flagged for a closer look

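A library standing apart from the other 3 of its group was looked for in 374 sets of 4 values, the CPM of each named gene and the summed CPM of each marker list in the day 8 tumour and the day 5 control group. A library is listed when its gap to the nearest other exceeds Dixon's 95% critical share of the group's range, which chance does in about 1 group in 20. It did so in 33 sets, 8.82%, of which 9 concern control replicate 2, 7 tumour replicate 1, 6 tumour replicate 2, 5 tumour replicate 4, 4 control replicate 3 and 2 control replicate 4.

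Among immune peptides, tumour replicate 2 was high for Dro (169 CPM), Def (39.1), DptA (469), AttA (380), BomS3 (703) and Dso2 (12.9), and control replicate 2 for AttA (85.3), BomS6 (0.548), BomT2 (2.74), BomS3 (166), Dso2 (1.23) and SPE (43.4). Control replicate 2 was also high for Socs36E (13.6), CG14762 (2.05) and CG3348 (110). Tumour replicate 4 was high for Socs36E (96.5), TotE (9.13), dl (81.4) and CG1213 (43.7).

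Tumour replicate 1 was high for the summed salivary gland markers (193.5 CPM) and gut markers (252), for Sgs5 (1.67), Sgs7 (0.771), ImpE2 (0.2998) and GstD3 (2.06), and low for Hsp23 (42.2). Control replicate 3 was high for the salivary sum (1667), Sgs3 (659), Sgs5bis (181) and the mitochondrial ribosomal gene mRpL36 (7.03). Control replicate 4 was high for ImpE2 (14.6) and low for Sr-CI (1.90), and tumour replicate 4 was low for Sgs8, at 0 counts.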

How the results depend on the processing

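In the 4 comparisons between groups, every count of genes called stayed within 1.5 times of its main value under the alternatives run, except with a minimum of 1.5-fold in the main comparison and with scaling by library totals, which was chosen after seeing the data. That test leaves 2186 of 4733 genes, 1112 higher and 1074 lower, as it is stricter by construction. Leaving out 1 library gave 4297 to 4683 calls. With a replicate block the count was 4750. The numbers did not pair the samples (correlations of same-numbered deviations of 0.081, 0.109, -0.069 and -0.078), and the block moved 3 list counts by over 1.5 times, of which DNA replication went from 9 to 14 higher. By library totals the main comparison has 5823 calls, 4979 higher and 844 lower. Against day 4 controls 5277 are higher and 775 lower, and against day 5 tumour larvae there are 4663 calls, 4354 higher and 309 lower. By that scaling 10 named genes that are called under TMM or library totals change sign. They are scrib (0.34), Lsp2 (0.19), Npc2a (0.22), Syt1 (0.14), usp (0.22), gce (0.60), hop (0.26), Stat92E (0.02), Ilp6 (0.02) and apolpp (0.58). Lsp1beta, called under neither, changes sign as well (0.39). No other alternative turned a named gene that is called. Of the values for single genes under an alternative, 4182 kept their side of the threshold, 132 lost the call and 5 gained it. For list counts 1615 kept within 1.5 times, 138 were smaller and 47 larger. Leaving out tumour replicate 1 and control replicate 3 together, the library of each group with most salivary gland RNA, was chosen after seeing the data and gave 4371 calls. The planned scalings moved the median log2 difference of all genes, 0.03, to between -0.001 and 0.037, and library totals to 0.64. Depth limits genes with few reads, such as upd3 and Ilp8, where a count of 0 does not show absence.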

Other observations

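Some lists held few or mixed differences. Of 18 aminoacyl-tRNA synthetases 3 were higher and 5 lower than in day 5 controls, or 7 and 3 without control replicate 3, and 11 and none by library totals, while 16 of 18 were lower than in day 4 controls, or 7 by library totals. Of 6 transferrin and ferritin genes 2 were higher and 2 lower, or 4 and none by library totals, and the higher count is 1 without tumour replicate 2 or 4 or control replicate 2 or 3. Of 9 matrix protease and integrin genes 2 were higher and 4 lower, or 6 and 1 by library totals, and the lower count is 1 without tumour replicate 1 or 2 or control replicate 1, and 2 without tumour replicate 4 or control replicate 2 or 4. Mmp1, a secreted metalloprotease, was at 11.4, 11.7, 9.84 and 9.17 CPM against 36.2, 23.9, 22.5 and 60.4 (-1.76 ± 0.67, adjusted p = 0.0324) and kept its call without control replicate 2 or 3 but not without any other of the 8 libraries (adjusted p up to 0.115), nor by library totals (-1.14, adjusted p = 0.146). Of 2 yolk protein genes tested, Yp3 was lower and Yp2 higher, the latter not called without tumour replicate 1 or control replicate 2 or 3.

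In the Imd list the amidase PGRP-SC2 was at 3.9, 19.6, 7.38 and 6.73 CPM against 1.09, 3.77, 1.35 and 2.68 (2.09 ± 0.52, adjusted p = 0.00194), or 1.44 without tumour replicate 2. The adaptor imd was lower by -1.87 ± 0.14, and it overlaps the highly expressed Dp1 on the opposite strand. Of the mitochondrial genes, SdhA, of complex II, was higher (1.10 ± 0.15, adjusted p = 3.52e-06), and ND-AGGG, of complex I, lower (-0.89 ± 0.08, adjusted p = 1.54e-08).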
